A study of Mus musculus with 18 samples.

Results

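The transcripts described here are those of the 7 anterior pituitary hormone genes Pomc, Gh, Prl, Cga, Tshb, Fshb and Lhb in thymic epithelial cells of the mouse. They were found by symbol among the 23063 genes of the deposited expression tables, and all 7 were present with 1 value per library. RNA was sequenced from 6 groups of 3 libraries: Aire-/- (KO) and wild-type (WT) mTEChi, KO and WT mTEClo, and KO and WT cTEC, all sorted by flow cytometry from digested thymi of mice aged 6 to 8 weeks. mTEC are epithelial cells of the thymic medulla and cTEC those of the cortex. Hi and lo name sort gates whose surface protein the labels do not give. Every mouse, WT mice included, carries the strain name B6.129S2-Airetm1.1Doi/J, and the labels do not say whether WT mice were littermates or whether mice were pooled. They also do not say that the 3 libraries of a group came from separate mice, so the p-values below measure the spread between libraries, which may be technical.

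In the pituitary each of these genes belongs to a specialised cell type. Corticotropes and melanotropes make proopiomelanocortin (Pomc), the precursor of ACTH, melanocyte-stimulating hormones and beta-endorphin. Somatotropes make growth hormone (Gh) and lactotropes prolactin (Prl). The glycoprotein hormones are pairs of a shared alpha subunit (Cga) with a beta subunit that sets the hormone: Tshb for thyrotropin, Fshb for follicle-stimulating hormone and Lhb for luteinising hormone. In the thymic medulla such tissue-restricted genes are transcribed at low levels, a process called promiscuous expression, and Aire is the best known regulator of it; developing T cells that recognise the encoded antigens are removed or diverted into regulatory T cells.

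The DNA just before the transcription start is shown for 5 of the genes, because it lets the promoters of the genes that were lower in KO mTEChi be read beside each other. Each line gives the last 60 bases before the start, 5′ to 3′ on the coding strand, from the RefSeq promoter table of GRCm38.p6, the assembly that mm10 names, with TATAAA in capitals.
Pomc, chr12:3954885-3954944, plus strand: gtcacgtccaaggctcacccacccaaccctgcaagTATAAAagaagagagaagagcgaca
Prl, chr13:27057510-27057569, plus strand: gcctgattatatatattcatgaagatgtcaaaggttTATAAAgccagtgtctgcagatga
Cga, chr4:34893719-34893778, plus strand: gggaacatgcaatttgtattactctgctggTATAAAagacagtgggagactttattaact
Tshb, chr3:102782715-102782774, minus strand: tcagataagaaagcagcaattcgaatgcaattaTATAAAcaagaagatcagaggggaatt
Fshb, chr2:107059652-107059711, minus strand: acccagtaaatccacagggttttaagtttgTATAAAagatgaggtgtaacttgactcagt

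Of the 7 genes, 6 matched the promoter table and Gh did not. All 6, Lhb included, held TATAAA on the coding strand within the last 50 bases, starting at position -25 in Pomc, -24 in Prl, -30 in Cga, -27 in Tshb, -30 in Fshb and -31 in Lhb, where -1 is the base before the start. Of the 32544 promoters in that table, 2.62% held it there. In Prl the match overlaps one on the other strand. The 300 bases around the start (250 before, 50 after) held 18 CpG dinucleotides in Pomc but 1 in Prl, 1 in Cga, 2 in Tshb, 3 in Fshb and 4 in Lhb, against a median of 7 over all promoters. The same windows were searched on both strands for 4 short motifs of factors known in pituitary development. TATNCAT, a core of Pou1f1 sites, occurred in Prl at -47 and, on the opposite strand, at -148, and 8.74% of all promoters held it. AAGGTCA, read by Nr5a1, occurred in Pomc at -63 and in Lhb on the opposite strand at -129, and 4.71% of all promoters held it. The Pitx motif TAATCC (7.06% of promoters) and the T-box motif TCACACC (3.95%) were not found in the 6 windows. Lhb, which was not lower in KO mTEChi, had the same TATAAA placement before the start used here as the genes that were. All 60 bases before that Lhb start lie in annotated Lhb exons, against 0 in Pomc, Prl and Cga, 4 in Tshb and 5 in Fshb. The placement in Lhb thus depends on which start is used.

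Levels are given in RPKM, which are scaled by gene length and library size. The aligned bases on genes ran from 4.54 to 18.1 Gb per library. Aire itself averaged 1073 ± 64.5 RPKM in KO mTEChi and 677 ± 17.9 RPKM in WT mTEChi (SD, n = 3 each); the tables give 1 value for the whole gene, so this level does not check the deletion. Cd80, a costimulatory protein of mature mTEC, averaged 101 ± 1.98 RPKM in KO mTEChi and 77.0 ± 1.03 RPKM in WT mTEChi, and at most 12.1 RPKM in the other groups. Psmb11, the cortex-specific proteasome subunit, averaged 13.9 ± 5.77 RPKM in KO cTEC and 17.8 ± 5.72 RPKM in WT cTEC, and at most 1.84 RPKM elsewhere. The medullary keratin Krt5 was nevertheless at 989 ± 100 RPKM in KO cTEC and 808 ± 56.1 RPKM in WT cTEC, so the cTEC libraries also held a high level of a medullary marker.

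WT mTEChi had the highest level of 5 of the 7 hormone genes, and without Aire most of that signal was gone. The summed level of the 7 genes was 22.4 ± 0.0995 RPKM in KO mTEChi and 87.9 ± 1.29 RPKM in WT mTEChi (SD, n = 3 each). In mTEClo and cTEC it was between 1.69 and 2.64 RPKM as a group mean. The makeup of the sum also differed. Pomc gave 9.51% of it in KO mTEChi and 64.9% in WT mTEChi, while Gh gave 73.2% in KO mTEChi and 13.3% in WT mTEChi. In each KO mTEChi library the Pomc level was between 0.111 and 0.157 of the Gh level, and in each WT mTEChi library it was between 4.54 and 5.53 times the Gh level, a ratio that a constant factor per library does not change. In bulk samples such as these, fewer cells that transcribe a gene and less RNA per cell cannot be told apart.

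**Figure D1:**
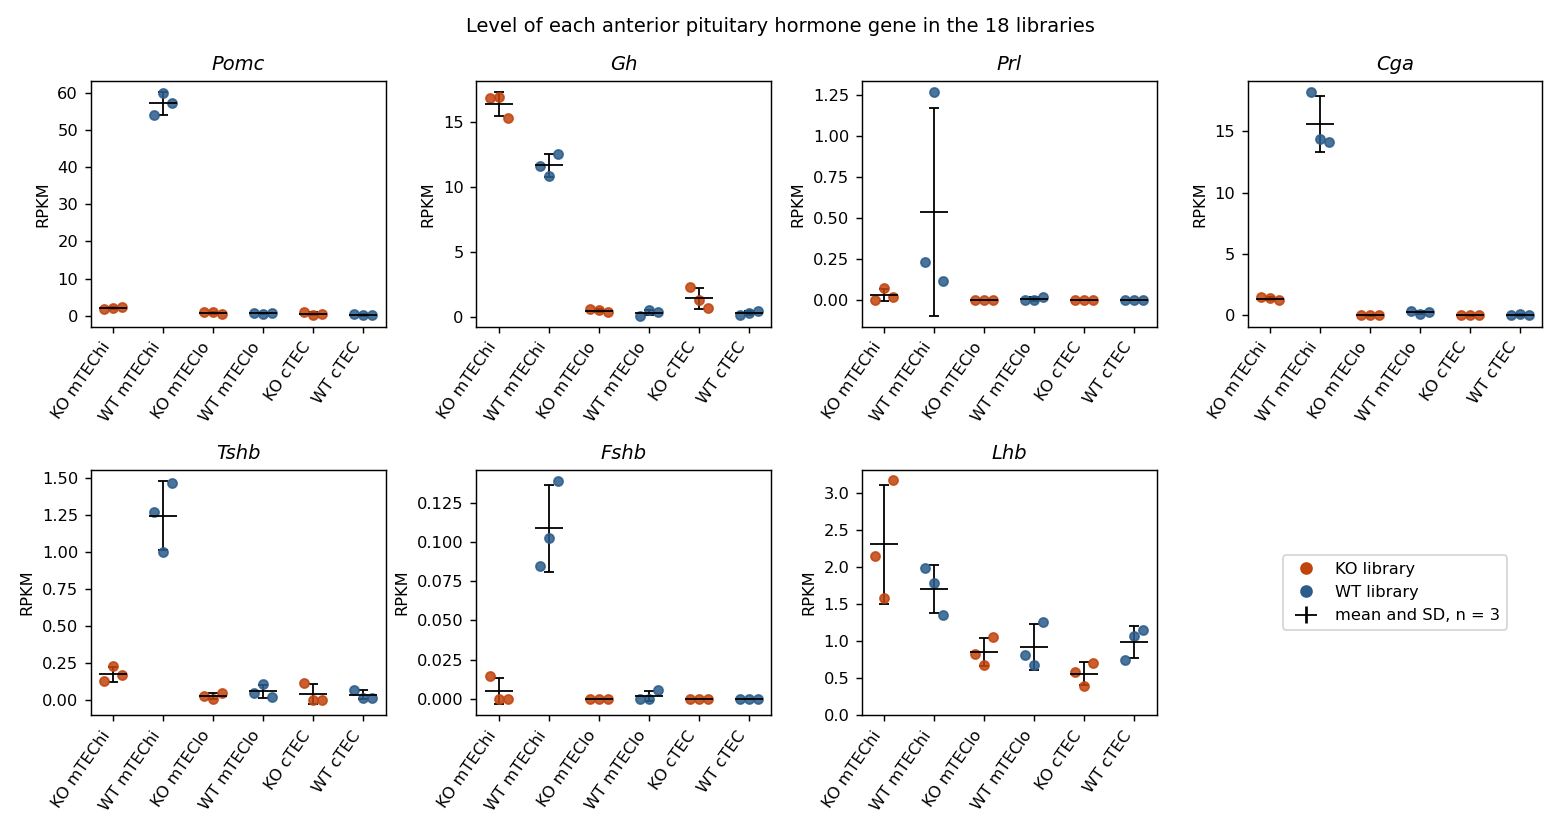
RPKM of each hormone gene in the 18 libraries, 1 panel per gene with its own linear axis; points are libraries (KO in orange, WT in blue), bars the mean and SD of 3. Pomc, Prl, Cga, Tshb and Fshb are highest in WT mTEChi, while Gh lies between 15.4 and 17.0 RPKM in KO mTEChi and between 10.9 and 12.6 RPKM in WT mTEChi.

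The first comparison asked which hormone genes depend on Aire in mTEChi. Of the 6 genes with enough signal to test, Pomc, Prl, Cga and Tshb fell in KO mTEChi, while Gh and Lhb were not called. Here log2(RPKM + 0.1) was modelled with limma over 19451 genes, and a gene was called at a Benjamini-Hochberg adjusted p under 0.05. The background is large: 52.8% of all tested genes were called lower and 9.57% higher, and the median over all genes was -0.39 on the log2 scale. The median over the 6 hormone genes was -2.08, but Prl reached the 0.1 RPKM filter in WT mTEChi libraries alone and had to differ. With quantile normalization the median of all genes moved to 0.08, and the split became 4808 genes lower and 6064 higher instead of 10269 lower and 1862 higher.

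Pomc (chr12:3954951-3960618, mm10) was the most highly expressed of the 7 genes in WT mTEChi and the one with the largest fall among the 6 tested. It stood at 1.88, 2.11 and 2.41 RPKM in KO mTEChi, against 53.9, 60.0 and 57.2 RPKM in WT mTEChi. The groups were far apart, and the KO mean was 3.73% of the WT mean. The log2 fold change was -4.68 ± 0.479 (SE), with a limma adjusted p of 4.4e-07 and a 95% interval of -5.70 to -3.67. The remaining signal in KO mTEChi was still above that of the other sorts: Pomc had 0.908, 0.915 and 0.440 RPKM in KO mTEClo and 0.974, 0.171 and 0.565 RPKM in KO cTEC. It was called higher in KO mTEChi than in KO mTEClo (log2 fold change 1.44, limma adjusted p = 0.015) and than in KO cTEC (1.94, adjusted p = 0.0019), the first of which was lost without KO mTEClo replicate 3 (1.13, limma adjusted p = 0.0719).

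Cga (chr4:34893779-34907374), the alpha subunit of all 3 glycoprotein hormones, was the second highest of the 7 genes in WT mTEChi. It had 1.46, 1.39 and 1.25 RPKM in KO mTEChi, against 18.2, 14.4 and 14.1 RPKM in WT mTEChi. Every WT library was far above every KO library. The KO mean was 8.77% of the WT mean, with a log2 fold change of -3.41 ± 0.308 and a limma adjusted p of 1.1e-07.

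Among the beta subunits, Tshb (chr3:102777398-102782714) fell and Lhb did not. Tshb had 0.129, 0.227 and 0.167 RPKM in KO mTEChi, against 1.27, 0.998 and 1.47 RPKM in WT mTEChi. The ranges were well separated, the KO mean was 14.0% of the WT mean, and the log2 fold change was -2.29 ± 0.291 (limma adjusted p = 4.7e-06). Fshb (chr2:107056141-107059651) was barely detectable: it had 0.0145, 0 and 0 RPKM in KO mTEChi, against 0.0845, 0.103 and 0.139 RPKM in WT mTEChi. These are 199 aligned bases in the single KO library with signal and 1969, 2996 and 4765 in the WT libraries. The groups did not overlap (exact permutation p = 0.1, two-sided, the smallest that 3 against 3 libraries allow), and with 2 libraries at or above 0.1 RPKM Fshb was not among the tested genes. With no filter it was called lower (log2 fold change -0.99, limma adjusted p = 1.38e-07). That fit shares its spread over all 6 groups, and Fshb was listed at 0 in every KO mTEClo, KO cTEC and WT cTEC library. The limma value therefore does not measure the spread of the mTEChi libraries alone. The microRNA gene Mir3110 overlaps Fshb.

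Lhb (chr7:45420946-45421854) had 2.15, 1.59 and 3.17 RPKM in KO mTEChi, against 1.98, 1.79 and 1.35 RPKM in WT mTEChi. The groups overlapped. The log2 fold change of 0.37 had a 95% interval of -0.235 to 0.98 (limma adjusted p = 0.27), but Lhb was called higher with quantile normalization (1.74, limma adjusted p = 0.000137). Its values need care, because Ruvbl2, an ATPase gene on the opposite strand, lies 0.044 kb from its end and had 14.6 ± 1.50 RPKM in KO mTEChi and 23.3 ± 1.97 RPKM in WT mTEChi. Whether the counting used strand is not given in the sources used here, and the part of Ruvbl2 reads in the Lhb value was not tested. Ruvbl2 was called lower in KO mTEChi (-0.67, limma adjusted p = 2.0e-05).

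The ratio of Cga to the summed beta subunits differed between KO and WT mTEChi, but the separation of the libraries rested on Lhb. Cga stood at 0.374 to 0.764 times the summed beta subunits in KO mTEChi libraries and at 4.77 to 5.45 times that sum in WT mTEChi libraries. In KO mTEChi the beta sum was mostly Lhb. The position below 1 in KO rests on Lhb, the gene next to Ruvbl2. With Lhb left out, a choice made after seeing the data, Cga stood at 6.1 to 10.2 times the sum of Tshb and Fshb in KO mTEChi libraries and at 8.8 to 13.5 times that sum in WT mTEChi libraries. Those ranges overlapped.

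**Figure D2:**
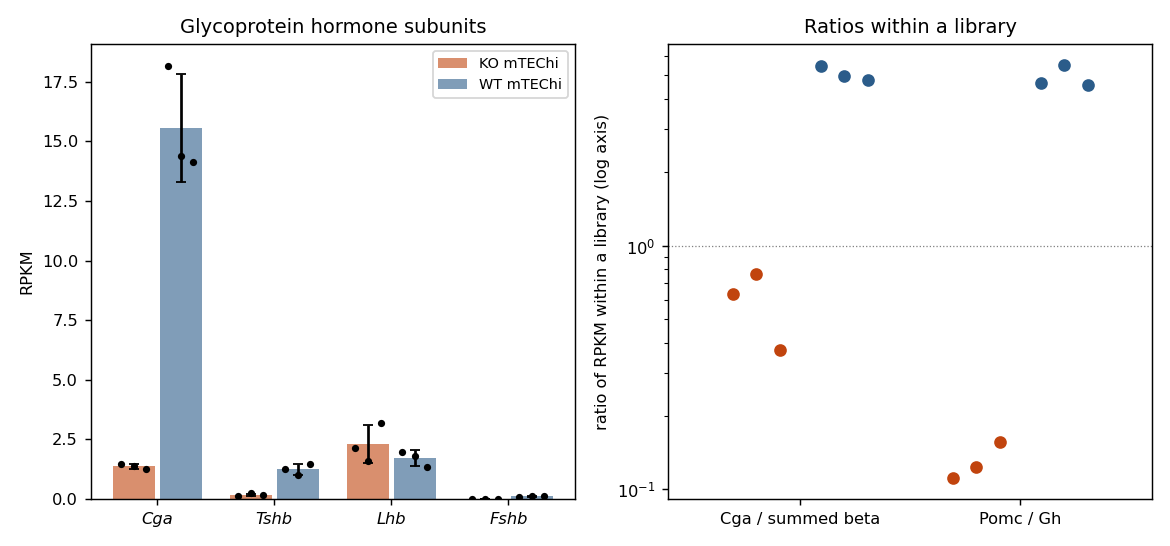
Left, mean RPKM and SD of the glycoprotein hormone subunits in KO (orange) and WT (blue) mTEChi, with the 3 libraries as dots, on a linear axis. Right, ratios of RPKM within each library on a log axis with the same colours: Cga over the summed beta subunits and Pomc over Gh lie below 1 in every KO library and above 4.5 in every WT library. The position of the Cga ratio below 1 in KO rests on Lhb.

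Growth hormone was not lower in any KO mTEChi library. Gh (chr11:106300261-106301896) had 16.9, 17.0 and 15.4 RPKM in KO mTEChi, against 11.6, 10.9 and 12.6 RPKM in WT mTEChi. Every KO library was above every WT library, and the KO mean was 140% of the WT mean. The difference was not called: the log2 fold change of 0.49 ± 0.400 had a limma adjusted p of 0.30 and a 95% interval of -0.36 to 1.34. The call turned on how the spread was estimated. Gh varied more between libraries in the other sorts, with 0.122, 0.523 and 0.421 RPKM in WT mTEClo for example. A limma fit on the mTEChi libraries alone called it higher (adjusted p = 0.000459), as did the fit with 1 in place of 0.1 added to the RPKM (adjusted p = 0.0424).

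Prolactin was at the edge of detection. Prl (chr13:27057570-27065203) had 0, 0.0708 and 0.0157 RPKM in KO mTEChi, against 0.232, 1.26 and 0.113 RPKM in WT mTEChi. In WT mTEChi replicate 2 the level was several times that of the other WT libraries, from 20723 aligned bases, and in 11 of the 12 mTEClo and cTEC libraries Prl was listed at 0. The log2 fold change was -1.87 ± 0.441 (limma adjusted p = 0.0016); it was -1.09 without WT mTEChi replicate 2, and Prl was not called with quantile normalization (-0.50, limma adjusted p = 0.303).

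The second comparison asked where the hormone genes are expressed in WT thymus. Pomc, Gh, Cga, Tshb and Lhb were called higher in WT mTEChi than in WT mTEClo, where 41.6% of all tested genes were higher and 31.1% lower. The same 5 were called higher in WT mTEChi than in WT cTEC, where 46.6% of all tested genes were higher and 31.8% lower. For Pomc the level was 53.9 to 60.0 RPKM in WT mTEChi, against 0.756, 0.346 and 0.735 RPKM in WT mTEClo and 0.540, 0.0709 and 0.248 RPKM in WT cTEC. The log2 fold change was 6.39 over WT mTEClo (limma adjusted p = 7.2e-09) and 7.41 over WT cTEC (8.4e-10). For Cga the log2 fold changes were 5.49 and 6.68, for Gh 4.82 and 4.87, and for Tshb 3.09 and 3.33, in the order WT mTEClo, WT cTEC, and the highest of their limma adjusted p-values was 9.96e-08, for Tshb over WT mTEClo. Prl was called as well (2.11 and 2.20), but it passed the filter through WT mTEChi alone and so had to be higher there, and it was not called under quantile normalization (0.72 and 0.74, limma adjusted p = 0.118 and 0.101). These sizes understate the change of genes near 0 RPKM, because 0.1 was added to every value. Lhb differed least, by 0.85 over WT mTEClo (limma adjusted p = 0.014) and 0.73 over WT cTEC (0.028). Under quantile normalization both of these turned round, to -0.34 over WT mTEClo and -0.76 over WT cTEC, so the direction for Lhb rests on the scaling. The call over WT mTEClo was also lost without WT mTEChi replicate 1 (0.74, limma adjusted p = 0.0574) or WT mTEClo replicate 2 (0.67, 0.0684), and that over WT cTEC without WT mTEChi replicate 1 (0.62, 0.0977), WT mTEChi replicate 2 (0.69, 0.0721) or WT cTEC replicate 1 (0.56, 0.117).

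Hormone genes were also higher in the mTEChi of KO thymus. Of the 6 tested genes, 5 were called higher in KO mTEChi than in KO mTEClo, where 23.4% of all tested genes were higher and 43.7% lower. Against KO cTEC 5 were called higher as well, where 26.6% of all tested genes were higher and 41.2% lower. For Gh the step over mTEClo was 4.78 in KO (limma adjusted p = 2.6e-08) and 4.82 in WT. For Pomc the step over mTEClo was 1.44 in KO and 6.39 in WT, for Cga 3.70 in KO and 5.49 in WT, and for Tshb 1.10 in KO and 3.09 in WT. With 0.01 in place of 0.1 added, the Cga step was 6.30 in KO and 5.94 in WT, so the order of the Cga steps, and that of Cga and Gh within KO, rests on the value added. The KO minus WT difference in mTEChi and the WT steps between populations share the WT mTEChi libraries, so they are not independent of each other. Prl was the gene without a call (0.33 over either KO sort, adjusted p = 0.54 by limma).

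For every hormone gene but Lhb, neighbours in the order of group means were separated only at the upper end. For Lhb the highest groups, KO mTEChi and WT mTEChi, overlapped, while WT mTEChi and WT cTEC, the next pair, did not. Pomc in WT mTEChi, KO mTEChi and KO mTEClo formed 3 steps without overlap, and the groups below overlapped. Gh was highest in KO mTEChi, then WT mTEChi, then KO cTEC, then KO mTEClo, with no overlap between neighbours in that order, and KO mTEClo, WT mTEClo and WT cTEC overlapped. Cga was separated down to WT mTEClo and WT cTEC, with 0.357, 0.151 and 0.258 RPKM in WT mTEClo, against 0, 0.144 and 0.0426 RPKM in WT cTEC. Cga was the gene called higher in WT mTEClo than in WT cTEC (log2 fold change 1.19, limma adjusted p = 0.0052), where 24.6% of all tested genes were higher and 18.2% lower. It was not called when those libraries were fitted alone (adjusted p = 0.0613 by limma). Without WT cTEC replicate 1, Pomc was called too (1.49, limma adjusted p = 0.0238).

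The genotype effect was then read in the other populations. In mTEClo Cga fell, while the other 5 tested genes were not called, against 8.04% of all tested genes called lower and 7.93% higher. Cga had 0.0431, 0 and 0 RPKM in KO mTEClo, against 0.357, 0.151 and 0.258 RPKM in WT mTEClo. All KO libraries lay below all WT libraries, with 2 of the 3 KO libraries listed at 0, and the KO mean was 5.62% of the WT mean. The log2 fold change was -1.62 ± 0.308 (limma adjusted p = 0.0027), a size that depends on the added 0.1, with -3.85 for 0.01 and -0.30 for 1. Pomc was at 0.908, 0.915 and 0.440 RPKM in KO mTEClo, against 0.756, 0.346 and 0.735 RPKM in WT mTEClo. Those ranges overlapped (log2 fold change 0.27, 95% interval -0.753 to 1.28, limma adjusted p = 0.77), so no fall of Pomc was detectable in mTEClo. Summed markers of other cells differed with genotype here. The 6 macrophage and dendritic markers summed to 69.4 to 138 RPKM in KO mTEClo and 25.9 to 33.1 RPKM in WT mTEClo. For the 4 B cell markers the sums were 28.6 to 32.2 RPKM in KO mTEClo and 9.55 to 17.7 RPKM in WT mTEClo. For the 4 fibroblast markers they were 32.2 to 54.6 RPKM in KO mTEClo and 67.9 to 85.8 RPKM in WT mTEClo. Single genes carried the last 2: Cd79b (30.6 ± 2.13 RPKM in KO mTEClo and 12.6 ± 4.54 RPKM in WT mTEClo) and Dcn (40.0 ± 11.6 RPKM in KO mTEClo and 72.1 ± 9.12 RPKM in WT mTEClo). Little of the macrophage and dendritic sums came from Cd68 (5.73 ± 1.12 RPKM in KO mTEClo and 3.05 ± 0.327 RPKM in WT mTEClo). The same held for Csf1r (0.575 ± 0.222 RPKM in KO mTEClo and 0.423 ± 0.166 RPKM in WT mTEClo) and Emr1. These markers were named after their values were seen. Called higher were 2 of 6 macrophage and dendritic and 1 of 4 B cell markers, and called lower was 1 of 4 fibroblast markers. The part of these cells in the fall of Cga was not tested.

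The difference between the genotype effects in mTEChi and in mTEClo was tested directly. It was called for Pomc (-4.95, limma adjusted p = 2.2e-05), Tshb (-1.99, 0.00092) and Cga (-1.80, 0.0031), against 40.9% of all tested genes called in that direction and 6.01% in the other. Prl was called too (-1.78, limma adjusted p = 0.028), but its direction was set by the filter, which it passed through WT mTEChi alone. It was not called for Gh (-0.04, 95% interval -1.25 to 1.16) or Lhb (0.45, 95% interval -0.412 to 1.31). For Cga it came with like proportions left, 8.77% of WT in KO mTEChi and 5.62% of WT in KO mTEClo, and with 0.01 in place of 0.1 added to the RPKM the difference was 0.35 (limma adjusted p = 0.848), so its sign rests on the value added. For Tshb the call was also lost with 0.01 (adjusted p = 0.197 by limma). For Prl it was lost without KO mTEChi replicate 1 (-1.62), KO mTEChi replicate 3 (-1.73), WT mTEClo replicate 1 (-1.74) or WT mTEClo replicate 2 (-1.74), with limma adjusted p of 0.0506 to 0.0662.

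**Figure D3:**
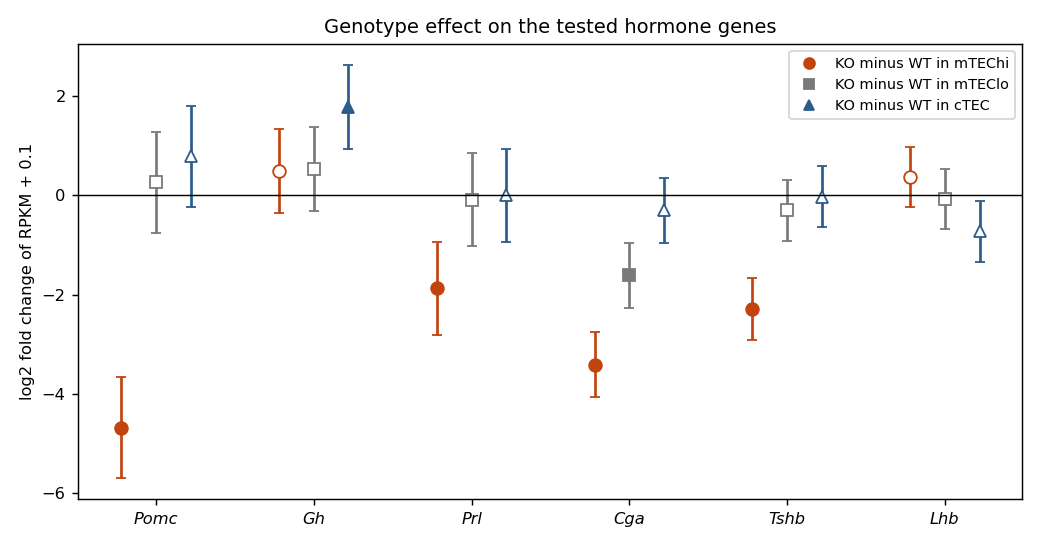
Log2 fold change of RPKM + 0.1, KO minus WT, for the 6 tested hormone genes in mTEChi (orange circles), mTEClo (grey squares) and cTEC (blue triangles), with 95% intervals from limma; filled symbols were called at an adjusted p under 0.05. Pomc, Prl, Cga and Tshb lie below 0 in mTEChi, Cga also in mTEClo, and Gh lies above 0 in cTEC.

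In cTEC Gh rose, against 13.3% of all tested genes called higher and 6.76% lower. Gh had 2.34, 1.30 and 0.681 RPKM in KO cTEC, against 0.161, 0.358 and 0.446 RPKM in WT cTEC. The ranges did not overlap, and the log2 fold change was 1.78 ± 0.400 (limma adjusted p = 0.0049, 95% interval 0.93 to 2.63). Fitted on the cTEC libraries alone it was not called (adjusted p = 0.165), and that limma fit called 12 genes higher and 6 lower in the whole table. Markers of medullary cells moved with it. Of 8 mTEC markers, 7 were in the tables with none at 0 in all libraries, 4 of them were called higher in KO cTEC, and their sum was 3377 to 3592 RPKM in KO cTEC and 2994 to 3253 RPKM in WT cTEC. Aire was at 95.6, 35.9 and 27.0 RPKM in KO cTEC, against 2.09, 3.95 and 7.39 RPKM in WT cTEC. Cd80 was at 21.3, 8.81 and 6.15 RPKM in KO cTEC, against 1.50, 3.98 and 5.76 RPKM in WT cTEC. KO cTEC replicate 1 was the highest of the 6 libraries in Gh, Aire and Cd80, and without it Gh was still called (1.38, limma adjusted p = 0.0282). The 6 macrophage and dendritic markers summed to 110 to 152 RPKM in KO cTEC and 24.8 to 63.5 RPKM in WT cTEC. Little of these sums came from Cd68 (5.66 ± 0.901 RPKM in KO cTEC and 3.65 ± 0.744 RPKM in WT cTEC). The same held for Csf1r (1.05 ± 0.529 RPKM in KO cTEC and 0.920 ± 0.397 RPKM in WT cTEC) and Emr1. These markers were named after their values were seen. The 4 B cell markers summed to 10.2 to 24.9 RPKM in KO cTEC and 2.33 to 4.75 RPKM in WT cTEC. The B cell sums were mostly Cd79b (14.9 ± 7.58 RPKM in KO cTEC and 2.79 ± 1.43 RPKM in WT cTEC). Called higher were 2 of 6 macrophage and dendritic and 1 of 4 B cell markers. The part of medullary or other cells in the Gh difference was not tested.

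The other hormone genes were not called in cTEC. Lhb had 0.588, 0.395 and 0.705 RPKM in KO cTEC, against 0.751, 1.07 and 1.15 RPKM in WT cTEC. The ranges did not overlap, but the log2 fold change of -0.73 had a limma adjusted p of 0.087; without KO cTEC replicate 3 it was called (-0.88, 0.0496). Pomc had 0.974, 0.171 and 0.565 RPKM in KO cTEC, against 0.540, 0.0709 and 0.248 RPKM in WT cTEC, with overlap and a log2 fold change of 0.78 (limma adjusted p = 0.28). Without KO cTEC replicate 2 it was called higher (1.33, limma adjusted p = 0.0489). Cga, Tshb and Prl were at 0.144 RPKM or less in every cTEC library.

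Markers of other cell types were set beside the mTEChi result. No marker was at 0 in all libraries of a group. The 7 thymocyte markers summed to 10.5 to 20.2 RPKM in KO mTEChi and 26.4 to 45.4 RPKM in WT mTEChi, and the 4 endothelial markers to 3.22 to 4.21 RPKM in KO mTEChi and 5.16 to 9.93 RPKM in WT mTEChi. The 6 macrophage and dendritic markers summed to 358 to 389 RPKM in KO mTEChi and 336 to 365 RPKM in WT mTEChi, the 4 B cell markers to 22.2 to 23.9 RPKM in KO mTEChi and 20.5 to 23.5 RPKM in WT mTEChi, and the 4 fibroblast markers to 27.2 to 36.9 RPKM in KO mTEChi and 28.4 to 33.5 RPKM in WT mTEChi. These last sums are carried by single genes, such as Lyz2 (349 ± 16.7 RPKM in KO mTEChi and 321 ± 14.9 RPKM in WT mTEChi) and Dcn (32.7 ± 5.29 RPKM in KO mTEChi and 15.7 ± 1.54 RPKM in WT mTEChi), and single markers did move. Called lower in KO mTEChi were 3 of 7 thymocyte, 3 of 4 endothelial, 3 of 6 macrophage and dendritic, 2 of 4 B cell and 3 of 4 fibroblast markers, against 52.8% of all tested genes, while 1 macrophage and dendritic and 1 fibroblast marker were called higher. Under quantile normalization the counts called lower were 1, 0, 1, 0 and 1, against 4808 of the 19451 tested genes. The macrophage marker Emr1 ranged over 0.123 to 0.256 RPKM in KO mTEChi and 4.76 to 5.16 RPKM in WT mTEChi, and the collagen gene Col1a1 averaged 0.135 ± 0.0185 RPKM in KO mTEChi and 13.2 ± 1.54 RPKM in WT mTEChi. These 4 genes were named after their values were seen. The part of these cells in the falls of Pomc, Cga, Tshb and Prl was not tested.

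Genes that work with the pituitary hormones were counted from lists of their roles. The transcription factors that specify pituitary cells mostly fell in KO mTEChi. Of 16 tested, 14 were called lower, against 52.8% of all tested genes. Their median log2 fold change was -2.32 against -0.39 for all genes, and 4 of the 16 reached 0.1 RPKM in WT mTEChi libraries alone. Under quantile normalization 8 were lower and 1 higher, against 4808 genes lower and 6064 higher of the 19451 tested. Those quantile counts over all genes are also the background for the quantile counts of the lists below. Pou1f1, which drives Gh, Prl and Tshb in the pituitary, had 0.0289, 0.0880 and 0.00807 RPKM in KO mTEChi, against 0.956, 1.63 and 1.31 RPKM in WT mTEChi (-3.31, limma adjusted p = 2.7e-07). In the same KO mTEChi libraries, where Pou1f1 was below 0.1 RPKM, Gh stood at 15.4 to 17.0 RPKM. Lhx3, a LIM factor of early pituitary development, averaged 0.0680 ± 0.0164 RPKM in KO mTEChi and 1.74 ± 0.248 RPKM in WT mTEChi (SD, n = 3 each). Gata2, a factor of thyrotropes and gonadotropes, averaged 0.0261 ± 0.0114 RPKM in KO mTEChi and 2.25 ± 0.468 RPKM in WT mTEChi. Nr5a1, which acts on Lhb in gonadotropes, averaged 0.0433 ± 0.0286 RPKM in KO mTEChi and 1.10 ± 0.195 RPKM in WT mTEChi, while Lhb itself was not called. Each of these falls had a limma adjusted p of 2.7e-07 or less. Whether the hormone genes depend on these factors in mTEC was not tested. The immediate early gene Egr1 was at 230 ± 21.9 RPKM in KO mTEChi and 226 ± 39.1 RPKM in WT mTEChi and was not called.

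The hypothalamic factors that act on the pituitary showed the largest falls of the lists counted. Of 8 tested, 7 were called lower in KO mTEChi, against 52.8% of all tested genes, and 7 also under quantile normalization. Their median log2 fold change was -6.09, and 1 of the 8 reached 0.1 RPKM in WT mTEChi libraries alone. Crh, which releases ACTH, was listed at 0 in all 3 KO mTEChi libraries, against 3.97, 7.63 and 3.30 RPKM in WT mTEChi. Avp (vasopressin) was also listed at 0 in all 3 KO mTEChi libraries, against 13.5, 16.7 and 13.9 RPKM in WT mTEChi. Trh, the releasing hormone of thyrotropin, averaged 0.00308 RPKM in KO mTEChi and 10.4 ± 3.61 RPKM in WT mTEChi. Ghrh, the releasing hormone of growth hormone, had more signal left, with 0.832, 1.08 and 1.09 RPKM in KO mTEChi, against 5.92, 5.14 and 3.45 RPKM in WT mTEChi. Gnrh1 was the one not called (-1.01, limma adjusted p = 0.062). In mTEClo, 3 of the 8 were called lower in KO, against 8.04% of all tested genes: Avp, Ghrh and the oxytocin gene Oxt.

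The receptors for these factors fell as well. All 8 tested were called lower in KO mTEChi (3 of the 8 under quantile normalization), against 52.8% of all tested genes. Their median was -2.07, and 2 of them reached 0.1 RPKM in WT mTEChi libraries alone. Crhr1, the receptor of corticotropes, averaged 0.196 ± 0.0769 RPKM in KO mTEChi and 3.43 ± 0.617 RPKM in WT mTEChi. Ghrhr, the receptor of somatotropes, averaged 0.511 ± 0.145 RPKM in KO mTEChi and 3.80 ± 0.867 RPKM in WT mTEChi. The Gh means differed in the opposite direction, and a link between Ghrhr and Gh was not tested. Of the genes for prohormone processing and secretory granules, 6 of 11 were called lower and 1 higher (4 lower and 1 higher under quantile normalization), close to the 52.8% lower and 9.57% higher of all tested genes, with a median of -1.25. The granins Chgb and Scg2 averaged 0.458 ± 0.197 and 0.471 ± 0.298 RPKM in KO mTEChi and 7.68 ± 2.31 and 6.61 ± 1.38 RPKM in WT mTEChi. Pcsk2, a convertase that cuts proopiomelanocortin to melanocyte-stimulating hormone, averaged 0.154 ± 0.0259 RPKM in KO mTEChi and 1.70 ± 0.376 RPKM in WT mTEChi. The gene called higher was Pam, the amidating enzyme, at 63.7 ± 0.607 RPKM in KO mTEChi and 54.7 ± 1.90 RPKM in WT mTEChi (0.22, limma adjusted p = 0.016).

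The receptors of the hormones themselves depended on the scaling. Of 8 tested, 7 were called lower in KO mTEChi, against 52.8% of all tested genes, with a median of -1.38. Of the 8, 1 reached 0.1 RPKM in WT mTEChi libraries alone. Under quantile normalization 2 were called higher and 0 lower, and the median was 0.06. The remaining lists were smaller or noisier. Of the other glycoprotein hormone subunits, Gpha2 fell (0.266 ± 0.0442 RPKM in KO mTEChi and 4.77 ± 0.963 RPKM in WT mTEChi, limma adjusted p = 4.6e-07), and Gphb5 was not called (4.51 ± 0.127 RPKM in KO mTEChi and 4.48 ± 0.870 RPKM in WT mTEChi). Gphb5 was, like Gh, called higher in KO cTEC (1.91, limma adjusted p = 0.0060). Of the placental relatives of prolactin, 23 of 24 were in the tables, 12 were tested and 7 were called lower, with a median of -1.49; 5 of the 12 reached 0.1 RPKM in WT mTEChi libraries alone, and the share called lower is near the 52.8% of all genes (median 0.03 under quantile normalization, where 4 were called lower and 1 higher). Reads shared between these close paralogs cannot be separated here. Of 3 genes reported as pituitary autoantigens in humans, Tdrd6 and Pou1f1 were called lower (Pou1f1 alone under quantile normalization) and Eno2 was not called.

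**Figure D4:**
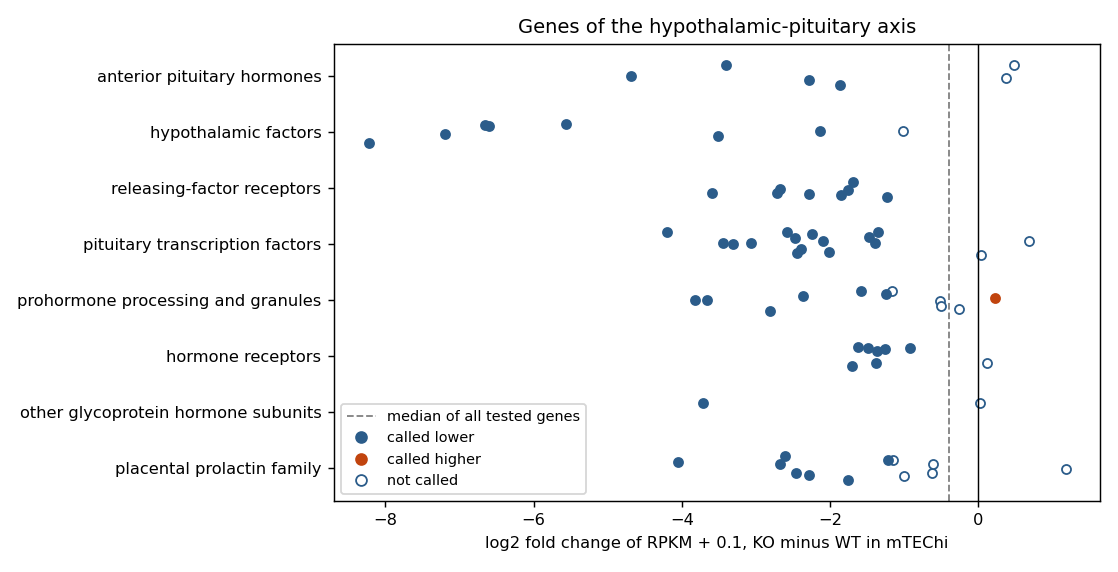
Log2 fold change of RPKM + 0.1, KO minus WT in mTEChi, of every tested gene of the hormone list and of 7 lists of related genes, 1 dot per gene (height within a row is arbitrary); the dashed line is the median of all 19451 tested genes at -0.39. The hypothalamic factors reach the lowest values, and Gh and Lhb are the hormone genes to the right of 0.

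The genes next to the hormone genes were read for their own difference between KO and WT mTEChi. Efr3b, 1.94 kb from Pomc, was called lower, with 0.446 ± 0.0534 RPKM in KO mTEChi and 1.50 ± 0.0975 RPKM in WT mTEChi (log2 fold change -1.55, limma adjusted p = 0.00032), though not under quantile normalization (-0.19). Tspan2, 5.09 kb from Tshb, was called lower as well (-1.12, limma adjusted p = 0.0028). Beside Cga the directions parted: Zfp292, 10.8 kb away, was called higher (0.31, limma adjusted p = 0.014) and Mob3b, on the other side, lower (-0.79, limma adjusted p = 0.00065), and Mob3b turned to 0.84 under quantile normalization. Beside Gh, Tcam1 was called lower (-0.67, limma adjusted p = 0.043; 1.05 under quantile normalization) and Cd79b was not called (19.7 ± 1.12 RPKM in KO mTEChi and 16.2 ± 2.19 RPKM in WT mTEChi). Gm10485, 92.7 kb from Pomc on the other side, averaged 1.02 ± 0.259 RPKM in KO mTEChi and 0.555 ± 0.146 RPKM in WT mTEChi. Sycp1, 35.8 kb from Tshb on the other side, averaged 0.0312 ± 0.0296 RPKM in KO mTEChi and 0.280 ± 0.0583 RPKM in WT mTEChi. Beside Prl, Prl3d2 averaged 0 RPKM in KO mTEChi and 0.132 RPKM in WT mTEChi. Arl14ep, beside Fshb, averaged 4.78 RPKM in both. The other neighbours of Prl and Fshb, 1091 and 2033 kb away, are not described. In the deposited RPKM, the neighbours on either side of Pomc, and of Cga, thus differed in direction. Both neighbours of Tshb, and Prl3d2 beside Prl, had lower means in KO mTEChi, as the hormone genes did. For comparison, 52.8% of all tested genes were called lower in KO mTEChi.

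Likeness over the 18 libraries was measured as the Pearson correlation of log2(RPKM + 0.1), as a description over libraries that share groups and scaling. The genes most like Gh were Pla1a, Crtac1 and Cd80, with r of 0.991, 0.991 and 0.99. Within groups, Gh and Cd80 had the same order of libraries in KO cTEC, WT cTEC and KO mTEClo. Their orders differed in WT mTEChi and WT mTEClo, and in KO mTEChi the order of Cd80 was the reverse of that of Gh. Those most like Pomc were Pax7, Iyd and Xirp1 (0.978, 0.977 and 0.975), those most like Cga were Pappa, Ghrh and Cabp2 (0.982, 0.979 and 0.979), and those most like Tshb were Npy, Stk32b and Slc6a15 (0.979, 0.976 and 0.975). Lhb had no close match, its highest being Alg12 at 0.911. Between the hormone genes themselves, r was 0.952 for Pomc and Tshb, 0.922 for Pomc and Cga, 0.940 for Cga and Tshb, 0.729 for Pomc and Gh and 0.569 for Pomc and Lhb.

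**Figure D5:**
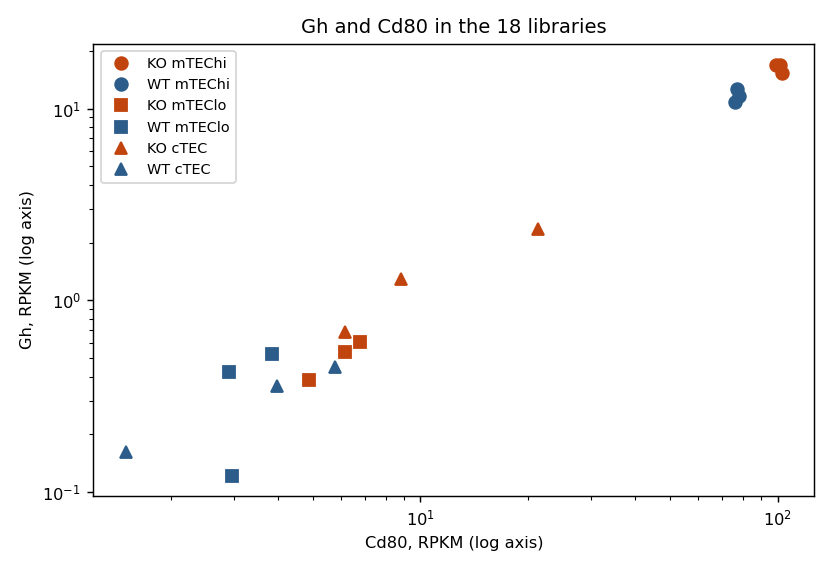
Gh against Cd80, both in RPKM on log axes, 1 symbol per library (circles mTEChi, squares mTEClo, triangles cTEC; KO in orange, WT in blue). Gh is high where Cd80 is high, with KO cTEC replicate 1 at 21.3 RPKM Cd80 and 2.34 RPKM Gh between the mTEChi libraries and the rest.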

How the data were processed

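RNA-seq libraries of sorted thymic epithelial cells were analysed from tables of 23063 genes that the authors deposited, 1 per library. The values used are the authors' RPKM; a second deposited column is a signal, the aligned bases summed over a gene, and gave depth (4.54 to 18.1 Gb). Per the submitters' processing notes, the build is mm10 and the software includes CASAVA 1.8.2; aligner, annotation and strand setting: not given in the sources used here. Of the base sums up to 2000, 12.0% were exact multiples of 100, so whole reads were not recovered and no counting interval is given. In all 18 libraries, log2(RPKM + 0.1) was fitted with limma 3.58.1 in R 4.3.3 (6 group means, eBayes with a trend, Benjamini-Hochberg over all tested genes), which was tested on simulated data. A gene was tested if 3 or more libraries reached 0.1 RPKM (19451 genes). Samples were grouped by title. Alternatives were other added values, filters, scalings (quantile, housekeeping list), fewer libraries, a replicate block and leaving out each library. Genes, lists and tests were chosen with earlier results of these data known. From each list the text could name the 3 genes with the highest group mean and those called in mTEChi at 1 RPKM or more; Gnrh1 was named after its values were seen. Likeness names 3 genes per hormone gene at 1 RPKM or more, and neighbours are the nearest tested genes on each side.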

Additional observations from a re-analysis of the deposited data

Results flagged for a closer look

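For 4 hormone genes the KO minus WT effect differed between mTEChi and mTEClo in the test of that difference on the log2 scale (limma, adjusted over all genes). The difference, mTEChi minus mTEClo, was -4.95 for Pomc, -1.99 for Tshb, -1.80 for Cga and -1.78 for Prl, and 40.9% of all tested genes were called in the same direction. For Pomc all 3 KO mTEChi libraries were below all WT mTEChi libraries, while the mTEClo libraries of both genotypes overlapped. For Cga the KO libraries were below the WT libraries in both populations, with a KO mean of 8.77% of WT in mTEChi and 5.62% in mTEClo. With 0.01 in place of 0.1 added to the RPKM the Cga difference was 0.35 (limma adjusted p = 0.848) and the Tshb difference lost its call (limma adjusted p = 0.197). Prl passed the filter through WT mTEChi alone, which set its direction, and its call was lost on leaving out any 1 of 4 libraries (limma adjusted p up to 0.0662). Prl was listed at 0 in all KO mTEClo libraries and in 2 of 3 WT mTEClo libraries, so its mTEClo effect could hardly be measured.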

How the results depend on the processing

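The direction and call of Pomc and Cga in KO mTEChi were kept under every alternative run, and of Tshb under all that tested it. No pairing by replicate number was seen between the KO and WT libraries of a population. Correlations of same-numbered libraries ran from -0.303 to 0.00391, and 0 of 6 libraries per population correlated best with their own number. Pairing between the sorts of the same genotype was not tested. A replicate block (10238 genes lower, 1854 higher in mTEChi) changed no count of hormone genes. In mTEChi 1 gene was called higher with 1 added to the RPKM, with quantile normalization and with the mTEChi libraries alone, and 2 lower at a 1 RPKM filter, where fewer genes were tested. The count of called differences of effect was 2 with 0.01 added, 2 at the 1 RPKM filter and 2 under quantile normalization, with 1 higher there (Lhb, 1.88). In cTEC 1 was lower under quantile normalization, and 0 higher by limma with those libraries alone (1 at an unadjusted p under 0.05). WT mTEChi over WT cTEC had 1 lower under quantile normalization, and WT mTEClo over WT cTEC 0 higher by limma with those libraries alone (1 at an unadjusted p under 0.05). Leaving out 1 library gave 1 to 2 higher and 0 to 1 lower in cTEC, and 1 to 2 higher in WT mTEClo over WT cTEC. Values that turned round were Cga (0.35, difference of effect, 0.01 added), Tshb in cTEC (0.0049, 1 added), the Gh difference of effect (0.29 with 1 added, 0.19 quantile, 0.17 housekeeping), Lhb (-0.34 and -0.76, WT mTEChi over WT mTEClo and WT cTEC, quantile), and Gh (-0.39) and Tshb (-0.17) in WT mTEClo over WT cTEC, quantile. The causes were not tested. Leaving out 1 library turned round values that were not called: in cTEC Tshb (-0.40 to 0.16) and Cga (-0.60 to 0.044), in mTEClo Pomc (-0.043 to 0.57) and Lhb (-0.25 to 0.15), in WT mTEClo over WT cTEC Gh (-0.27 to 0.50) and Lhb (-0.35 to 0.060), and the Gh difference of effect (-0.34 to 0.41). Values below 0.1 RPKM are limited by depth.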

Other observations

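Cd79b, the B cell receptor component that lies next to Gh, had a pattern of its own. It was called higher in KO cTEC, with 23.6, 11.3 and 9.79 RPKM in KO cTEC, against 1.96, 4.44 and 1.98 RPKM in WT cTEC (log2 fold change 2.37, limma adjusted p = 0.00010). It was also called higher in KO mTEClo, with 28.1, 32.0 and 31.6 RPKM in KO mTEClo, against 11.5, 17.6 and 8.67 RPKM in WT mTEClo (1.33, limma adjusted p = 0.012). Its partner Cd79a averaged 0.190 RPKM in KO cTEC and 0.241 RPKM in WT cTEC, and 0.160 RPKM in KO mTEClo and 0.231 RPKM in WT mTEClo, and was called in neither. Ms4a1, another B cell gene, was not called in either population.

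Sox2, a factor of pituitary progenitors, moved in opposite directions with genotype. It was lower in KO mTEChi, with 0.117, 0.246 and 0.256 RPKM in KO mTEChi, against 1.67, 1.21 and 0.808 RPKM in WT mTEChi (limma adjusted p = 9.4e-05). It was higher in KO mTEClo, with 1.69, 0.846 and 1.89 RPKM in KO mTEClo, against 0.517, 0.661 and 0.448 RPKM in WT mTEClo (limma adjusted p = 0.028), and in KO cTEC, with 1.51, 0.851 and 2.26 RPKM in KO cTEC, against 0.272, 0.420 and 0.377 RPKM in WT cTEC (limma adjusted p = 0.0024). Under quantile normalization the mTEChi difference was not called (-0.61, limma adjusted p = 0.158). Resp18, a neuroendocrine granule protein, was not called in mTEChi and was higher in KO cTEC, with 51.0, 18.2 and 10.5 RPKM in KO cTEC, against 1.71, 6.35 and 2.05 RPKM in WT cTEC (limma adjusted p = 0.00048). KO cTEC replicate 1, the highest in Resp18, was also the highest in Aire and Cd80; their part in the difference was not tested.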
